A study of Mus musculus with 17 samples.

Results

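The clustered protocadherins are cell-surface adhesion proteins encoded side by side on mouse chromosome 18 in 3 clusters, alpha, beta and gamma. Their start sites were taken as every tabulated site whose RefSeq transcript carries a symbol beginning with Pcdha, Pcdhb or Pcdhg. This gave 57 of the 24084 distinct start sites in the pileup tables (14 alpha, 22 beta and 21 gamma) and 51 of the 16482 in the count tables, where 6 beta genes are not listed (Pcdhb6, Pcdhb7, Pcdhb8, Pcdhb9, Pcdhb11 and Pcdhb12).

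The tables come from micrococcal nuclease (MNase) digests, in which the enzyme cuts between nucleosomes and the protected DNA is sequenced. Spun sperm is the supernatant of a digest of sperm from C57/B6J mice aged 10 weeks, crosslinked with 1% formaldehyde for 15 min and cut with 1 unit of MNase per 100000000 sperm. The titration is of sperm prepared in the same way, left unspun after 0.5, 2, 10 and 50 units, or separated into supernatant and pellet after 1, 5, 20 and 100 units. Spun ES is the supernatant of E14 embryonic stem cells of the 129 X Ola background, a single cell line, cut with 10 units per 1000000 cells; the sources used here mention no crosslinking of these cells. Each of these 14 preparations is 1 library, so no difference between preparations has a replicate check, no p-value is given, and every interval below is an exact 95% interval that covers counting error only. Strain, crosslinking, enzyme per cell and cell type differ together between sperm and ES cells and cannot be told apart. The sources used here do not say how many mice stand behind a library, and the labelled cell type could not be checked, since promoter DNA is present in every cell.

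Each alpha and gamma start site opens a variable exon that is spliced to constant exons shared by its cluster, while each beta gene stands on its own without constant exons. Neurons use a small, largely random choice of these promoters, and the resulting protein combination gives a neuron an identity that lets its branches recognise and avoid each other. The promoters are CpG-rich, and CTCF and cohesin bring chosen promoters to distant enhancers. The C-type genes at the end of the alpha and gamma clusters (Pcdhac1, Pcdhac2, Pcdhgc3, Pcdhgc4 and Pcdhgc5) are exempt from that random choice and are used more widely.

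On the mm9 assembly the alpha start sites lie between 37089938 (Pcdha1) and 37303622 (Pcdhac2) on chromosome 18, the beta start sites between 37424651 (Pcdhb1) and 37678006 (Pcdhb22), and the gamma start sites between 37821598 (Pcdhga1) and 37979199 (Pcdhgc5). Neighbouring start sites are at least 3994 bp apart, so windows of 1000 bp to each side of neighbours do not share bases. The count tables put promoters into high, intermediate and low CpG classes (HCP, ICP and LCP). All 14 alpha start sites, 10 beta and 19 gamma are HCP, 6 beta and 2 gamma are ICP, none is LCP, and 6 beta have no class there.

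Coverage of the spun and unspun libraries is the pileup of fragments of about the length of DNA on 1 nucleosome. It is expressed as the number of isolated fragments that would give the same signal. The spun libraries hold 21.6 (sperm) and 32.2 (ES cells) such fragments per start site within 1000 bp, and the unspun libraries hold 0.659 to 0.813. The supernatants and pellets of the titration were tabulated as reads of unstated fragment size. They hold 0.159 to 1.08 isolated read pairs per start site, treated as fragments below. Relative coverage is a start site's fragments over the mean of all start sites in that library. Log2 ratios compare shares of a library in the same way, with 1 fragment added to each site where single sites are compared and none where sites are pooled.

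In spun sperm, nucleosome-sized DNA was over-represented at the clusters, more so at alpha and beta than at gamma. Relative coverage was 1.76 in spun sperm and 1.20 in spun ES cells for alpha, 1.87 and 1.27 for beta, and 1.39 and 1.33 for gamma. The pooled log2 ratio of sperm over ES cells was 0.55 for alpha (0.38 to 0.73), 0.56 for beta (0.42 to 0.69) and 0.07 for gamma (-0.08 to 0.21). The alpha and beta intervals lie above the gamma interval and do not overlap it. Over all 57 members the ratio was 0.39 (0.30 to 0.47). The median over members was 0.54 for alpha, 0.54 for beta and 0.11 for gamma, against -0.06 over all start sites and -0.25 over the HCP class, to which most members belong.

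Counting members gave the same order of clusters. A share at least 1.5-fold higher in sperm was found at 6 of 14 alpha, 10 of 22 beta and 4 of 21 gamma start sites, 20 of 57 in all, where 17.5% of all start sites were that much higher. A share at least 1.5-fold lower was found at 1 alpha, 0 beta and 2 gamma start sites, 3 of 57, where 22.2% of all start sites were that much lower. The counting interval lay above 0 at 5 alpha, 10 beta and 3 gamma start sites, against 10.9% of all start sites, and below 0 at 1 member, against 10.7%. Whether an interval excludes 0 also depends on depth. Members held a median of 36.3 fragments in sperm and 39.3 in ES cells, against 18.6 and 31.4 over all start sites, so these shares are not compared at like depth. The gamma count of members at least 1.5-fold higher depended on the settings: it was 1 with 2000 bp to each side and 7 when shares were taken within the same CpG class.

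Within the HCP class the share of members called higher exceeded that of the class, and within the ICP class it was closer to it. Among HCP start sites, 14 of the 43 members were at least 1.5-fold higher in sperm, against 9.49% of that class, and their median log2 ratio was 0.35 against -0.25. Among ICP start sites, 2 of the 8 members were, against 19.2% of that class. When each member was compared only with its own class, the pooled ratio was 0.79 for alpha (0.61 to 0.96), 0.54 for beta (0.39 to 0.69, over the 16 genes with a class) and 0.28 for gamma (0.13 to 0.43). The gamma interval then no longer held 0, and it overlapped that of beta. The 6 beta genes left out there include Pcdhb9 and Pcdhb8, which had the highest beta ratios (1.92 and 1.69). The beta value of 0.54 is therefore not over the same genes as the 0.56 of the whole cluster, and neither is its overlap with gamma.

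**Figure D1:**
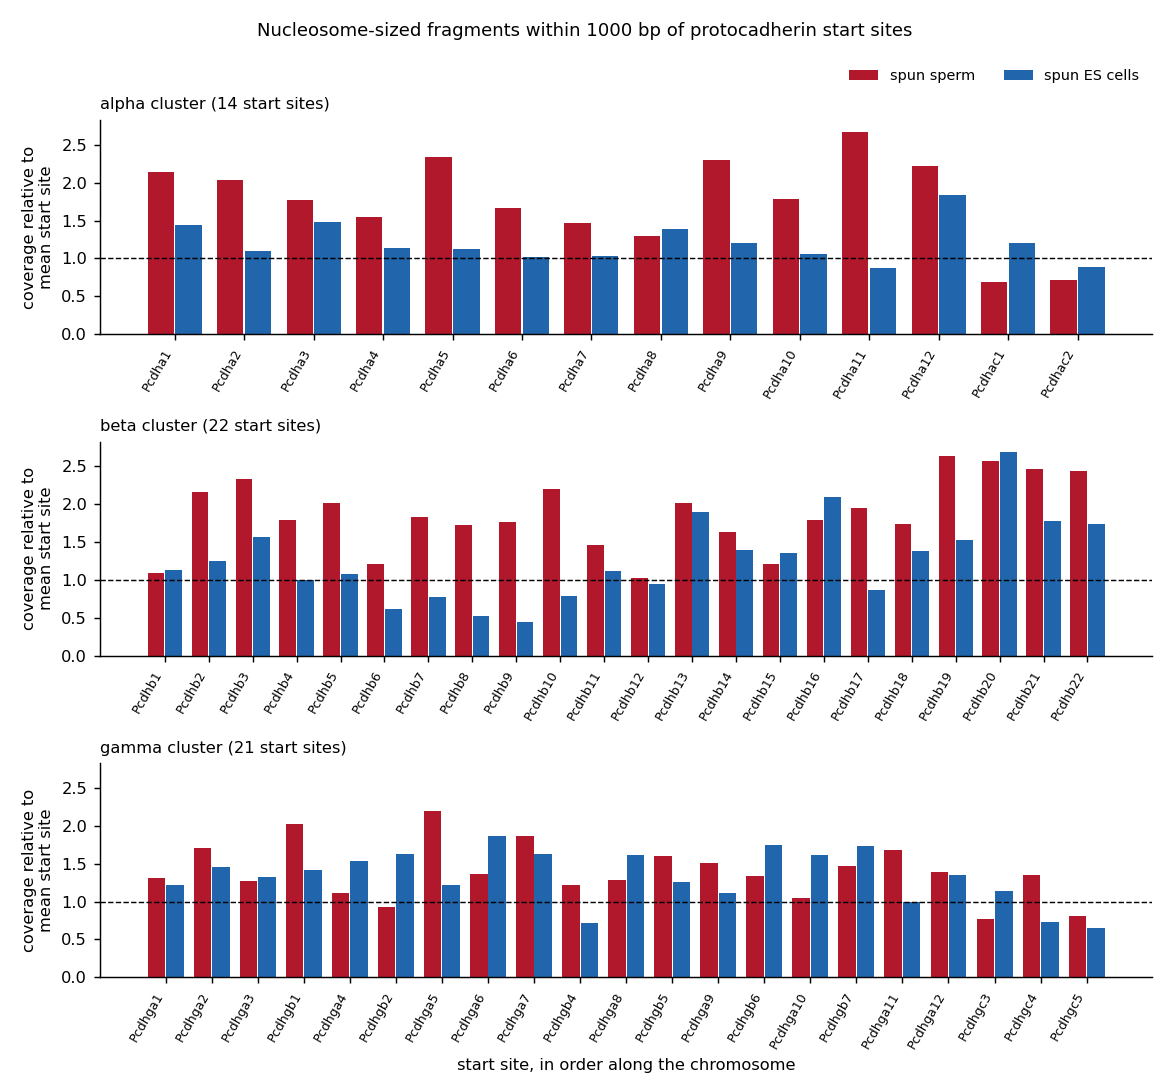
Relative coverage within 1000 bp of each start site (1 is the mean start site of the library, dashed line) in spun sperm (red) and spun ES cells (blue), with members in their order along the chromosome. Sperm bars are above 1 at 52 of 57 members and ES bars at 43 of 57.

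Members stood above the average start site in both cell types. Relative coverage was above 1 at 52 of 57 members in spun sperm, where 41% of all start sites were, and at 43 of 57 in spun ES cells, where 48% were. Across alpha members it ran from 0.683 (Pcdhac1) through a median of 1.78 to 2.67 (Pcdha11) in sperm, and from 0.868 (Pcdha11) through 1.13 to 1.84 (Pcdha12) in ES cells. Pcdha11 was thus the highest alpha site in sperm and the lowest in ES cells. Across beta members it ran from 1.03 (Pcdhb12) through 1.82 to 2.63 (Pcdhb19) in sperm, and from 0.445 (Pcdhb9) through 1.19 to 2.69 (Pcdhb20) in ES cells. The highest-over-lowest ratio was 2.56 in sperm and 6.04 in ES cells for beta, while it was 3.92 and 2.12 for alpha and 2.84 and 2.88 for gamma. In the gamma cluster the range was 0.773 (Pcdhgc3) to 2.20 (Pcdhga5) in sperm and 0.650 (Pcdhgc5) to 1.87 (Pcdhga6) in ES cells, with a median of 1.35 in each.

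Among the alpha genes, which encode neuronal adhesion proteins of the variable class, the ratios were spread around the cluster median with the C-type pair at the low end. Pcdha11 (start site 37170511) had 57.7 fragments in sperm and 27.9 in ES cells, a log2 ratio of 1.60 (0.95 to 2.33). Pcdha5 had 50.5 and 36.2 fragments, a ratio of 1.04 (0.40 to 1.71), and Pcdha9 had 49.6 and 38.6, a ratio of 0.93 (0.30 to 1.58). All 3 intervals exclude 0. Pcdha1, the first member of the cluster, had 46.3 fragments in sperm and 46.5 in ES cells, a ratio of 0.57 (-0.05 to 1.20). Pcdha12, the deepest alpha site, had 48 and 59.2 fragments, a ratio of 0.28 (-0.30 to 0.85), and Pcdha3 had 38.2 and 47.8, a ratio of 0.26. Pcdha8 was the lowest of the variable alpha genes, with 27.9 fragments in sperm and 44.8 in ES cells, a ratio of -0.09 (-0.84 to 0.60).

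The 5 C-type genes, used more widely in neurons, did not as a group show the alpha and beta pattern. Both alpha C-type genes had ratios below 0, and the gamma ones went both ways. Pcdhac1 (37249789) had 14.7 fragments in sperm and 38.6 in ES cells, a log2 ratio of -0.76 (-1.77 to 0.09), and Pcdhac2 had 15.3 and 28.4, a ratio of -0.28 (-1.33 to 0.63). These are the lowest alpha values in sperm. Pcdhgc3 had 16.7 fragments in sperm and 36.5 in ES cells, a ratio of -0.51 (-1.43 to 0.36), and Pcdhgc5 had 17.5 and 20.9, a ratio of 0.33 (-0.74 to 1.26). Pcdhgc4, which in mice is needed for the survival of neurons, differed from them with 29.05 fragments in sperm and 23.6 in ES cells, a ratio of 0.87 (0.02 to 1.69). The 5 C-type start sites together gave -0.09 (-0.48 to 0.29). The alpha C-type pair gave -0.58 (-1.26 to 0.06) and the 3 gamma C-type genes gave 0.22 (-0.28 to 0.71), with overlapping intervals that both hold 0. Alpha without its C-type pair gave 0.66 (0.47 to 0.84), and gamma without its C-type genes gave 0.05 (-0.11 to 0.21). The A-type and B-type gamma genes, which differ in sequence subfamily, had pooled ratios of 0.07 (-0.13 to 0.26) and 0.01 (-0.26 to 0.29).

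**Figure D2:**
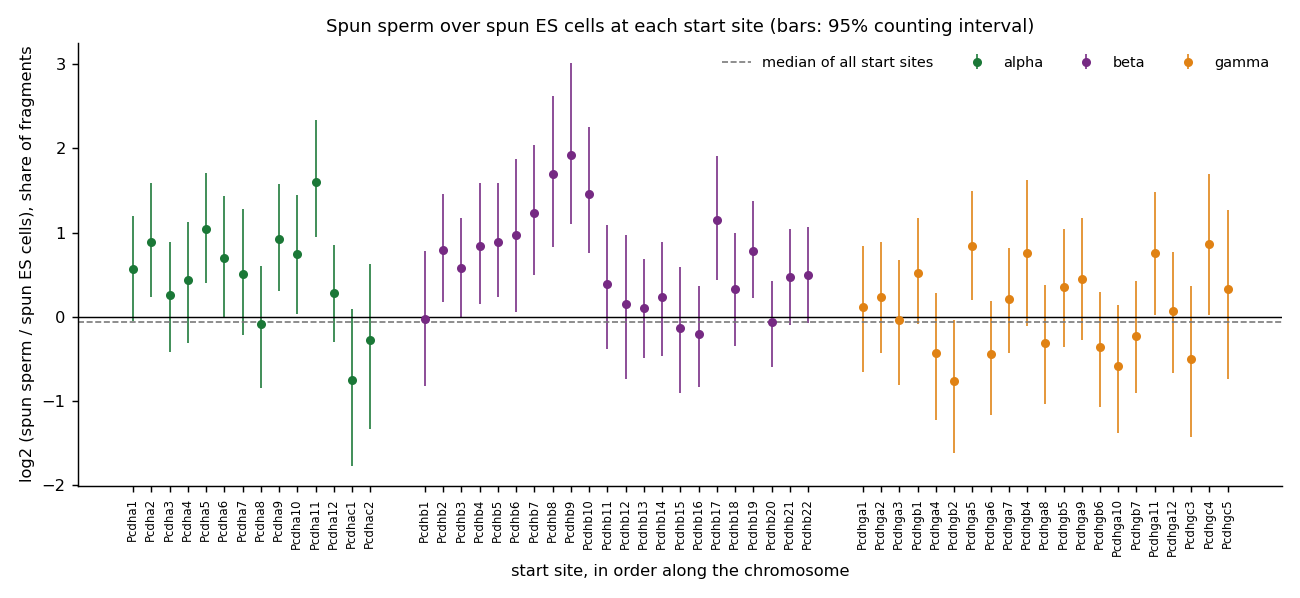
Log2 ratio of spun sperm over spun ES cells at each start site within 1000 bp (y axis), in order along the chromosome and coloured by cluster; bars are 95% counting intervals and the dashed line is the median of all start sites (-0.06). The ratios reach 1.60 at Pcdha11 and 1.92 at Pcdhb9, and gamma members lie on both sides of 0.

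In the beta cluster the highest ratios stood next to each other. Pcdhb10 (37571327) had 47.5 fragments in sperm and 25.4 in ES cells, a log2 ratio of 1.45 (0.76 to 2.25). Pcdhb7 had 39.6 and 24.9 fragments, a ratio of 1.23 (0.50 to 2.04). Pcdhb17 had 41.95 and 27.9, a ratio of 1.15 (0.44 to 1.91). Pcdhb9 (37560508) and Pcdhb8 had fewer than 20 fragments in ES cells and were picked out after their values were seen. Pcdhb9 had 38 fragments in sperm and 14.3 in ES cells, a ratio of 1.92 (1.10 to 3.02), and Pcdhb8 had 37.3 and 16.6, a ratio of 1.69 (0.83 to 2.62). The 7 neighbours Pcdhb4 to Pcdhb10, also picked out after their values were seen, had ratios of 0.83 to 1.92.

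Over that run the ES values were lower than over the other beta genes, while the sperm values were close. Mean relative coverage of the 7 genes was 1.79 in sperm and 0.745 in ES cells, against 1.90 in sperm and 1.51 in ES cells over the other 15 beta genes. Without the run, the other beta genes gave a pooled ratio of 0.33 (0.17 to 0.48). Because the run was picked for its high ratios, the rest comes out lower by construction, and low ES values are favoured within the run. The interval does not allow for that choice. At Pcdhb9 sperm had 28.8 fragments and ES cells 20.6 between -2000 and -1000 bp, while between -1000 and 0 bp sperm had 29.2 and ES cells 3.64. The reads of both strains were placed on mm9, and the part that strain differences in sequence play in these low ES values was not tested.

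The remaining named beta genes had lower ratios. Pcdhb20, the deepest start site of the cluster, had 55.4 fragments in sperm and 86.5 in ES cells, a log2 ratio of -0.06 (-0.60 to 0.42). Pcdhb16 had 38.7 and 67.5 fragments, a ratio of -0.21 (-0.83 to 0.36), and Pcdhb15 had 26.05 and 43.4, a ratio of -0.14 (-0.91 to 0.59). These are the lowest beta ratios, and each interval holds 0. Pcdhb1, the outlying first gene of the cluster, had 23.6 fragments in sperm and 36.4 in ES cells, a ratio of -0.03 (-0.82 to 0.78), while Pcdhb22, the last, had 52.8 and 55.8, a ratio of 0.50 (-0.07 to 1.06).

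Gamma members went both ways, 12 of 21 above 0 and 9 below, where 46.8% of all start sites were above 0; the alpha count was 11 of 14 and the beta count 18 of 22. Pcdhga5 had 47.4 fragments in sperm and 39.2 in ES cells, a log2 ratio of 0.84 (0.20 to 1.5). Pcdhgb4 had 26.3 and 23.05 fragments, a ratio of 0.76 (-0.11 to 1.63). On the other side, Pcdhgb2 had 20.05 fragments in sperm and 52.3 in ES cells, a ratio of -0.76 (-1.62 to -0.03), the only member whose interval lay below 0. Pcdhga10 had 22.6 and 51.9 fragments, a ratio of -0.59 (-1.38 to 0.13), and Pcdhga6 had 29.3 and 60.1, a ratio of -0.44 (-1.17 to 0.19). Pcdhga7, the deepest gamma site, had 40.4 and 52.5, a ratio of 0.21 (-0.43 to 0.82), and Pcdhga1, the first, had 28.2 and 39.3, a ratio of 0.11 (-0.66 to 0.84).

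The excess in sperm was larger upstream of the start sites than downstream. In alpha no excess was detectable downstream, and in beta a smaller one in the first 500 bp depended on the scale used. In the 2000 bp upstream, alpha had a pooled log2 ratio of 0.70 (0.55 to 0.85), beta 0.71 (0.59 to 0.83) and gamma 0.08 (-0.05 to 0.20). In the 2000 bp downstream the ratios were -0.17 (-0.41 to 0.07), 0.12 (-0.06 to 0.29) and -0.26 (-0.44 to -0.08). An upstream share at least 1.5-fold higher in sperm was found at 8 alpha, 15 beta and 2 gamma members, where 16.4% of all start sites were that much higher, and downstream at 0 alpha, 9 beta and 1 gamma members, where 16.7% were.

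Ratios by stretches of 500 bp were set over each library's total within 1000 bp of all start sites, not over the same stretch of all start sites. The alpha ratio was 0.95, 0.83, 0.75 and 0.82 from -2000 bp up to the start site. The beta ratio was 0.96, 0.99, 0.72 and 0.75. On this scale all start sites stood at 0.22, 0.18, 0.10 and 0.02 upstream and at -0.22, 0.00, 0.15 and 0.19 downstream. Past the start site the alpha ratio was -0.16, 0.11, 0.04 and -0.89, the last with an interval below 0 (-1.54 to -0.22). The beta ratio was 0.33, 0.11, 0.12 and 0.06, the first with an interval just above 0 (0.02 to 0.65). That call depends on the scale. Over the mean bin of the whole table the same beta stretch stood at 1.09 in sperm and 0.929 in ES cells, a smaller ratio. In alpha the interval was 0.47 to 1.17 just before the start site and -0.87 to 0.52 just after it, so the 2 overlap by little. Gamma ratios were 0.19 to 0.25 upstream and -0.35 and -0.30 in the 1000 bp downstream, so in gamma too the step at the start site went the way of all start sites. HCP start sites as a class had their lowest ratio, -0.73, in the 500 bp past the start site. Within 200 bp of the start site the pooled ratio was -0.028 for alpha (-0.54 to 0.45), 0.64 for beta (0.33 to 0.94), 0.04 for gamma (-0.36 to 0.45) and 0.33 over all members (0.11 to 0.54). An excess at the start site itself was thus found in beta and was not detectable in alpha or gamma.

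**Figure D3:**
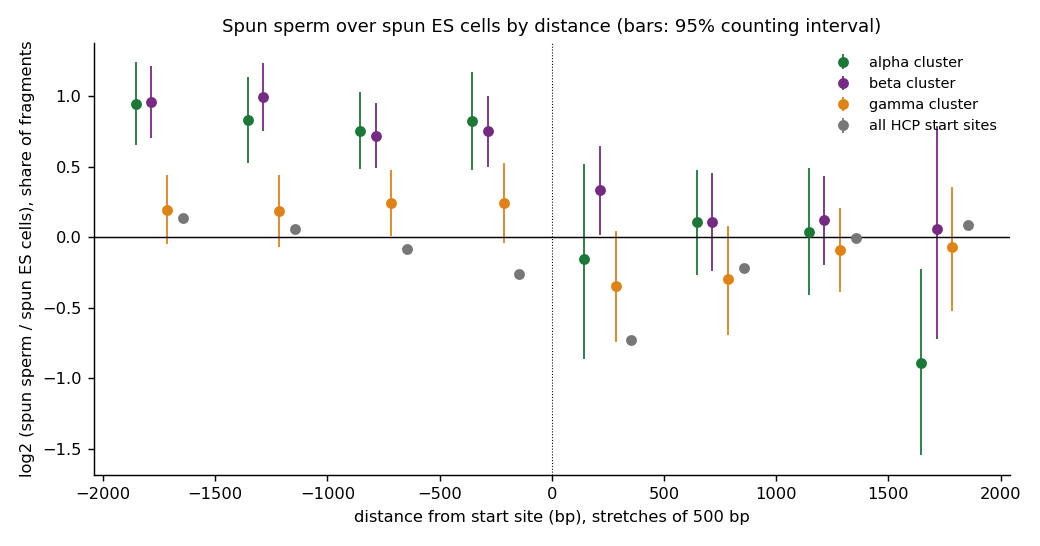
Pooled log2 ratio of spun sperm over spun ES cells in stretches of 500 bp (x axis, distance from the start site) for the 3 clusters and for all HCP start sites. Each library was set over its total within 1000 bp of all start sites. Bars are 95% counting intervals, and points of 1 stretch are set side by side. Alpha and beta lie between 0.72 and 0.99 in every upstream stretch, and gamma reaches at most 0.25.

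Upstream DNA was also favoured within each library. Every one of the 57 members had more sperm fragments in the 2000 bp upstream than in the 2000 bp downstream, where 60.2% of all start sites did, and 52 of 57 did in ES cells, where 56% did. The upstream-over-downstream ratio was 3.45 in sperm and 1.80 in ES cells for alpha, 2.75 and 1.73 for beta, and 2.31 and 1.74 for gamma, against 1.15 and 1.09 over all start sites. Between 1500 and 2000 bp downstream, inside the large first coding exon of these genes, coverage was low in both cell types. There it was 0.299 of the mean bin in sperm and 0.597 in ES cells for alpha, 0.189 and 0.195 for beta, and 0.529 and 0.597 for gamma, while all start sites stood at 1.19 and 1.12. No fragment at all lay in that stretch at 5 members in sperm, where 5.14% of all start sites had none, and at 8 in ES cells, where 5.56% had none. In the same stretch 45.6% of beta bins were 0 in both libraries, against 7.15% over all start sites. The first exons of a cluster resemble each other in sequence, and the sources used here do not say how reads that match several places were treated, so its part in the low downstream values was not tested.

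Past the start site, where CpG-rich promoters usually show a dip, coverage in sperm was lowest relative to the flanks in alpha. Beta in ES cells showed no dip within the first 300 bp. Coverage in the 300 bp downstream of the start site over that in the flanks (1000 to 2000 bp on each side) was 0.183 in sperm (0.097 to 0.304) and 0.506 in ES cells (0.353 to 0.696) for alpha. It was 0.461 in sperm (0.339 to 0.618) and 0.620 in ES cells (0.497 to 0.772) for gamma, and 0.895 in sperm (0.723 to 1.09) and 1.248 in ES cells (1.03 to 1.51) for beta. The alpha and beta intervals do not overlap in either cell type, while those of alpha and gamma overlap in ES cells. The median over members was 0.140 in sperm and 0.327 in ES cells for alpha, and 0.222 and 0.379 for gamma, which brings these clusters closer together. HCP start sites had 0.169 in sperm and 0.316 in ES cells. The downstream flank holds little coverage here, and the same ratio over the upstream flank alone was 0.113 and 0.388 for alpha, 0.342 and 0.492 for gamma, and 0.570 and 0.934 for beta. Over both flanks the beta interval in sperm also held 1. Beyond the 300 bp, the beta average in ES cells fell to its lowest value, 0.615 of the mean bin, 350 bp past the start site.

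Member by member, the 300 bp past an alpha start site held 0.364 to 3.27 fragments in sperm (median 0.682) and 0 to 7.95 in ES cells (median 1.89). Fewer than 3 fragments were found there at 13 of 14 alpha, 5 of 22 beta and 16 of 21 gamma members in sperm, and at 9, 6 and 12 in ES cells. In the cluster average, alpha coverage was lowest 210 bp past the start site in sperm (0.103 of the mean bin) and 330 bp past it in ES cells (0.135). The sperm peak of the alpha average was 3.09, at -830 bp.

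The 200 bp just upstream of the start site were not depleted to the extent seen at other CpG-rich promoters. Their ratio to both flanks was 0.866 in sperm and 1.13 in ES cells for alpha, 1.26 and 1.13 for beta, and 0.717 and 0.682 for gamma, against 0.291 and 0.346 for HCP start sites. Over the upstream flank alone the cluster ratios were 0.535 and 0.867 for alpha, 0.801 and 0.849 for beta, and 0.532 and 0.541 for gamma, which turns the beta value in sperm below 1.

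Profiles of single members resembled each other more in sperm than in ES cells. The median correlation over pairs of members, computed over bins that share a library, was 0.55 in sperm and 0.30 in ES cells for alpha (91 pairs), 0.52 and 0.19 for beta (231 pairs), and 0.36 and 0.15 for gamma (210 pairs). Pairs share members and the step from upstream to downstream, so these are descriptions. Correlations over pairs of other start sites were not computed, so a gap particular to these clusters is not shown. A member's sperm profile correlated with its own ES profile at a median of 0.40, against 0.37 over HCP start sites.

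The medians of other gene lists were lower than those of the alpha and beta clusters. Of 14 listed symbols of other protocadherins, which lie outside the clusters, 12 were found. Of these, 0 were higher and 2 lower by 1.5-fold, with a median log2 ratio of -0.03. Of 16 listed symbols of factors known to act on the clusters (among them Ctcf, cohesin subunits and DNA methyltransferases), 15 were found. Of these, 3 were higher and 5 lower, with a median of -0.27. For 15 sites these counts are near the 17.5% and 22.2% of all start sites. Of 8 genes for partners of protocadherin signalling, such as Ptk2b and Fyn, 0 were higher and 2 lower, with a median of 0.12. The 43 other start sites within 1 Mb of the clusters had 2 higher and 9 lower and a pooled ratio of -0.20 (-0.32 to -0.08). That set holds Gm37013, whose start site is 52 bp from that of Pcdha4, so these 2 share reads. It also holds a start site at 37921454 between Pcdhga11 and Pcdhga12, whose transcript has no symbol in the gene table used. From its place that site may be a gamma member that the symbol rule left out. The 39 start sites outside the outermost members gave -0.22 (-0.34 to -0.09).

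Unspun sperm did not carry the excess seen in spun sperm. Relative coverage of the 57 members was 1.07 (0.80 to 1.42), 0.960 (0.69 to 1.28), 0.971 (0.67 to 1.33) and 0.667 (0.44 to 0.99) at 0.5, 2, 10 and 50 units of MNase, against 1.67 in spun sperm. The log2 ratio of unspun over spun sperm was -0.63 (-1.06 to -0.22), -0.79 (-1.28 to -0.38), -0.78 (-1.32 to -0.32) and -1.32 (-1.9 to -0.75) in the same order of doses. All 4 intervals lie below 0, and the spun library is shared by all 4 ratios. Within 200 bp of the start site the intervals at 0.5, 2 and 10 units held 0, with ratios of -0.77, -0.71 and -0.89. Set against spun ES cells instead, unspun sperm gave -0.25 (-0.67 to 0.16), -0.41 (-0.89 to 0.00), -0.39 (-0.93 to 0.06) and -0.93 (-1.54 to -0.37). The separately spun supernatant of 1 unit, taken from the count tables, stood at 0.991 (0.66 to 1.40), where the spun library stood at 1.67. These 2 values are not alike. The first counts reads of unstated fragment size at 51 members, without 6 beta genes, over the mean of 16482 start sites. Enzyme amount, centrifugation and depth are not varied one at a time against the spun library and cannot be told apart.

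By cluster, the log2 ratios of unspun over spun sperm in beta were -1.14 (-2.00 to -0.42), -0.67 (-1.37 to -0.05), -1.18 (-2.13 to -0.36) and -2.45 (-4.10 to -1.25). For alpha they were -0.56 (-1.39 to 0.25), -1.76 (-3.19 to -0.61), -1.04 (-2.24 to -0.03) and -1.27 (-2.57 to -0.20). The gamma ratios were -0.17, -0.43, -0.21 and -0.52, each with an interval that holds 0, although at 2 and 50 units the gamma interval lay below 0 within the same CpG class (-0.82 and -1.02). The values rest on few fragments, 5.09 to 21.05 per cluster and library. Any signal was present at 34, 36, 25 and 20 of 57 members at 0.5, 2, 10 and 50 units, where 56.7%, 56.6%, 48.9% and 49.6% of all start sites had some.

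Single members cannot be followed through the titration. Pcdha11, Pcdhb9 and Pcdhb20 each had 0 fragments in all 4 unspun libraries. With 3 fragments taken as a rough one-sided limit for a count of 0, relative coverage could still reach 3.69, 3.69, 4.55 and 4.43 at 0.5, 2, 10 and 50 units. This limit is not one of the exact intervals, whose upper bound is higher. Pcdhac1, low in spun sperm, had 1.23, 1, 3.68 and 1 fragments. The largest value of any member was 4.95 fragments at 0.5 units and 3 at 50 units.

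In the supernatants and pellets, coverage of the 51 listed members lay near the average start site. It was 0.991 (0.66 to 1.40), 0.669 (0.39 to 1.09), 1.13 (0.83 to 1.54) and 0.693 (0.49 to 0.95) in supernatants at 1, 5, 20 and 100 units. In pellets it was 0.828 (0.35 to 1.78), 0.895 (0.53 to 1.46), 1.40 (0.95 to 1.99) and 0.644 (0.43 to 0.91). The interval lay below 1 at the highest dose of each of the 3 series. In supernatants 23, 15, 26 and 28 members had any signal, where 41.7%, 32.5%, 49.4% and 62.1% of the start sites did. In pellets 5, 13, 19 and 22 had any, where 13%, 25.7%, 32.1% and 53.9% did.

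The highest over the lowest dose gave log2 ratios of -0.69 (-1.43 to 0.03) in unspun sperm, -0.52 (-1.24 to 0.23) in supernatants and -0.36 (-1.67 to 0.99) in pellets, each with an interval that holds 0. That call depended on the setting: within 200 bp of the start site the pellet ratio was -3.33 (-7.04 to -0.33), and within the same CpG class the unspun ratio was -0.79 (-1.55 to -0.05). Supernatant over pellet gave 0.26 (-1.03 to 1.62), -0.42 (-1.52 to 0.63), -0.30 (-1.0 to 0.42) and 0.11 (-0.62 to 0.87) at 1, 5, 20 and 100 units. Each interval holds 0, and so do those of each cluster taken alone. Other settings moved 2 of these off 0: alpha at 5 units was -1.91 (-3.54 to -0.50) with 2000 bp to each side and -1.66 (-2.91 to -0.39) with bins read as 20 bp, and all members at 100 units were at 2.15 (0.33 to 5.70) within 200 bp. Over the 4 doses, with the fractions matched by dose, the mean log2 ratio was -0.09 ± 0.32 (SD, n = 4 doses), above 0 at 2 of 4, and leaving out 1 dose gave -0.21 to 0.02.

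**Figure D4:**
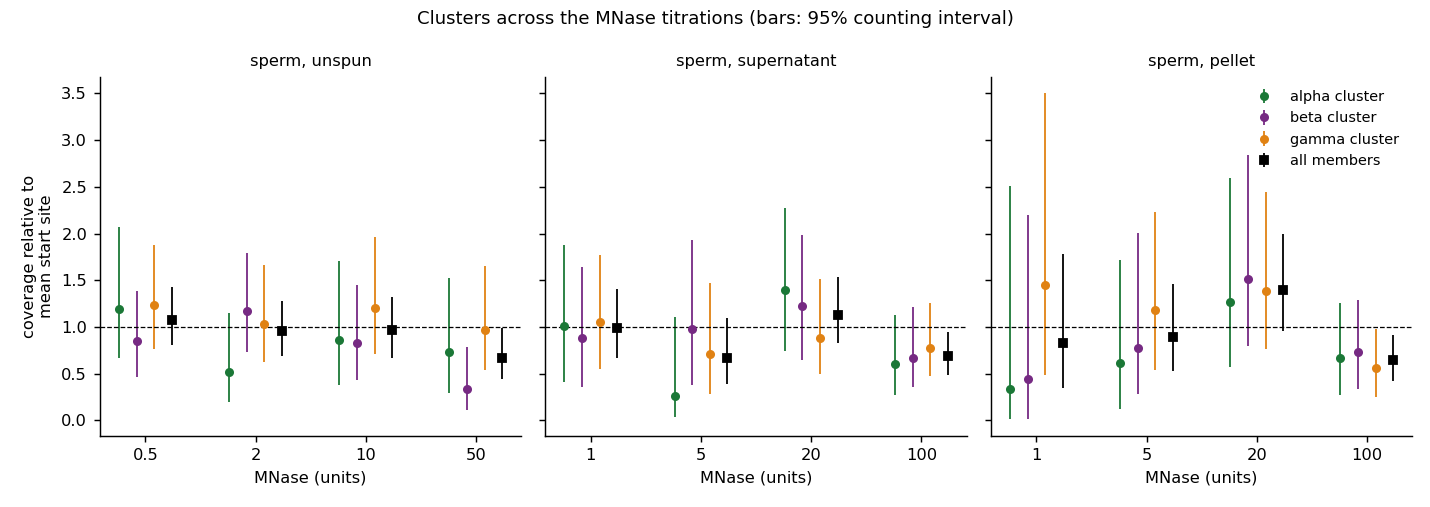
Relative coverage within 1000 bp of the start sites (y axis, 1 is the mean start site) by MNase dose (x axis, units) in unspun sperm, supernatants and pellets, for each cluster and for all members; bars are 95% counting intervals. All members stand at 0.667, 0.693 and 0.644 at the highest dose of the 3 series.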

How the data were processed

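MNase digests of sperm and ES cells were sequenced as read pairs, and 14 of the 17 samples, each with 1 library per group, were used; 3 were not analysed here. Per the submitters' processing notes, reads were placed on mm9 and the tools named include Bowtie and SAMtools 0.1.16. The authors deposited 6 tables of pileup signal (fragments of 135 to 165 bp, bins of 20 bp, 2000 bp to each side) and 8 tables of read counts. Per the file headers the count bins are 20 bp wide, but the distances between shared reads of neighbouring start sites gave 50 bp, within 10% at 11 of 14 pairs, and 50 bp was used, so these tables reach 5000 bp to each side. The sources used here give no fragment size for them. Neither kind of table was scaled for depth.

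Rows at a repeated position were used once. Symbols came from a RefSeq gene table (GRCm38.p6, names only), which matched 27260 of 28015 and 16285 of 16493 rows. Signal was divided by the value of an isolated fragment (22), and counts by that of an isolated read pair. Log2 ratios used 1 fragment as pseudocount for single members; a member was called at 1.5-fold. Intervals are exact 95% binomial intervals for ratios and exact Poisson intervals for relative coverage; PCR copies are not told apart, so they cover counting error only. Each group has 1 library, and no p-value is given. Titles were followed for 2 pellet samples whose descriptions give another number of units.

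Named in each cluster were the 3 highest and 3 lowest members with at least 20 fragments in each library, the deepest, the first and last, and the C-type genes. Members and gene lists were chosen with earlier results of these data known. Comparisons by 500 bp stretch, of unspun sperm with ES cells, of fractions averaged over doses and by CpG class of single genes were added after seeing the data. Calculations used Python 3.11.15, numpy 2.4.6, pandas 2.3.3 and SciPy 1.17.1, and were tested on simulated data.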

Additional observations from a re-analysis of the deposited data

How the results depend on the processing

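Of 371 recomputed values for 76 results, 320 stayed within the main range, 48 moved outside it, and in 3 a value whose interval excluded 0 (or a ratio of 1) changed side. That range was the counting interval for pooled and start-site ratios. For medians it was a range of ranked member values, which reflects spread over members and not counting error. For alpha that range is wide (-0.09 to 0.93), and it holds the median of 0.13 found within 200 bp. The range was 1 SD for means over doses and 1.5 times for counts. Of the 263 recomputed log2 ratios other than those means, 36 had the other sign, 33 of them in the titration; the others were alpha within 200 bp and, with 2000 bp to each side, the gamma pooled ratio (-0.03) and median (-0.05). Of 235 with an interval, 10 came to hold 0 and 11 no longer held it. No paired analysis was possible because each group has 1 library and so no replicate numbers to pair; the fractions were matched by dose instead, and leaving out each dose gave means of -0.41 to 0.53 (alpha), -0.04 to 0.40 (beta), -0.61 to -0.21 (gamma) and -0.21 to 0.02 (all). The share of all start sites past 1.5-fold was computed for the main window and for the 2000 bp upstream or downstream, not for other settings. With coverage within 200 bp of the start site, the pooled log2 ratio of spun sperm over ES cells turned to -0.028 in alpha. Members at least 1.5-fold lower numbered 3 alpha, 2 beta and 6 gamma, 11 in all. Those at least 1.5-fold higher numbered 5 alpha, 12 beta and 6 gamma, 23 in all. There the highest over the lowest dose gave 1.00 (alpha) and 0.24 (all) in supernatants and -4.55 (gamma) and -3.33 (all) in pellets. Supernatant over pellet gave -2.19 (gamma) and -1.41 (all) at 1 unit, 1.78 (alpha), 1.24 (gamma) and 0.95 (all) at 20 units and 2.15 (all, 0.33 to 5.70) at 100 units, and unspun over spun sperm gave -2.27 (beta, 0.5 units), -0.56 (alpha, 2 units) and -2.13 (all, 50 units). Within the same CpG class, which leaves out the 6 beta genes with no class, the sperm over ES ratio was 0.79 (alpha), 0.28 (gamma) and 0.51 (all), with 7 gamma members higher and 0 alpha, 0 gamma and 0 in all lower. With 2000 bp to each side, 1 gamma member was higher and 0 alpha, 0 gamma and 0 in all were lower. With the 2000 bp upstream only, chosen after seeing the data, the ratio was 0.71 (beta) and 0.48 (all), with 2 gamma members higher and 0 alpha, 1 gamma and 1 in all lower. A pseudocount of 5 fragments left 0 alpha, 1 gamma and 1 member in all lower, and a minimum of 20 fragments left 0 alpha lower. The highest over the second dose gave 1.19 for alpha in supernatants. Over the upstream flank alone, also chosen after seeing the data, the beta start-site ratio in sperm turned to 0.80 and the beta downstream ratio in ES cells to 0.93; the start-site ratio was 0.54 (alpha) and 0.53 (gamma) in sperm and 0.85 (beta) in ES cells, and the downstream ratio was 0.57 (beta) in sperm and 0.49 (gamma) in ES cells. The median over members gave a gamma start-site ratio of 0.51 in sperm and downstream ratios of 0.22 (gamma) in sperm and 0.33 (alpha) and 0.38 (gamma) in ES cells. The cause of these shifts was not tested. Depth limits the titration: its libraries hold at most 1.08 fragments or read pairs per start site, so single members were not compared there.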
